A study of Homo sapiens with 12 samples.

Results

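The 10 genes described here, TNFRSF14, PANX1, STOM, DGKA, NIM1K, SUGCT, GCNT3, CYP26B1, ZNF395 and ABTB2, moved with temozolomide (TMZ) in U87 cells and are not in a list of 35 classic p53 targets. They were chosen by their measured TMZ against DMSO differences with 1 or both siRNAs, so those differences are given as a description, without a test. The 10 are a small part of the 10686 genes measured. U87 is a human glioma cell line, grown in DMEM with fetal bovine serum. Its cells carried either control siRNA or siRNA against BCL3 from Dharmacon, and each siRNA was combined with DMSO or with 100 µM TMZ for 24 h. Each of the 4 groups has 3 Illumina bead arrays, 12 in all. Whether the 3 arrays of a group stem from different cultures is not in the labels, and the p-values therefore reflect array-to-array spread alone, which may be technical. All 4 groups were transfected, and no untransfected cells are among them.

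TMZ is a methylating drug used against glioblastoma, and the DNA damage that it causes activates the transcription factor p53 in cells that have it intact. BCL3 is an unusual I-kappa-B protein, found in the nucleus, where it joins NF-kappa-B dimers at kappa-B sites in DNA. The 10 genes share no single pathway. TNFRSF14 is a receptor of the tumour necrosis factor family. PANX1 is a channel and STOM a membrane scaffold, and DGKA and NIM1K are a lipid kinase and a protein kinase. SUGCT, GCNT3 and CYP26B1 are enzymes of glutarate, O-glycan and retinoic acid metabolism. ZNF395 is a zinc finger protein and ABTB2 has ankyrin repeats and a BTB domain.

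The upstream bases of TNFRSF14 and PANX1 are shown because they hold matches to the kappa-B consensus, in capitals, the kind of site at which NF-kappa-B dimers and BCL3 act. Those of NIM1K are shown because it had the lowest mean TMZ difference of all genes. NIM1K has a further start site, whose window is not shown. That window holds a GCGTG match 89 bases before the start and no ACGTG, fewer matches than the window shown. ACGTG was found in 2 and GCGTG in 5 of the 9 genes searched, against 21.7% and 36.2% of all genes. In NIM1K both are in capitals, as letters that match the core bound by hypoxia-inducible factors, which were not varied in the study. Binding by these or by other factors was not tested. Each is the 250 bases before a RefSeq start site in GRCh38.p14, read 5′ to 3′ on the strand of the gene, plus in all 3: TNFRSF14 at chr1:2556121-2556370, PANX1 at chr11:94128591-94128840 and NIM1K at chr5:43192602-43192851.
TNFRSF14: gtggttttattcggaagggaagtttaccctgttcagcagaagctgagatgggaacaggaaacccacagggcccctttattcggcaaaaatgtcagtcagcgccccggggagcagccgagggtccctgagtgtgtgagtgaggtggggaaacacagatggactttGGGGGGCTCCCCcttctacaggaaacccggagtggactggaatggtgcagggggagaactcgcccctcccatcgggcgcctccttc
PANX1: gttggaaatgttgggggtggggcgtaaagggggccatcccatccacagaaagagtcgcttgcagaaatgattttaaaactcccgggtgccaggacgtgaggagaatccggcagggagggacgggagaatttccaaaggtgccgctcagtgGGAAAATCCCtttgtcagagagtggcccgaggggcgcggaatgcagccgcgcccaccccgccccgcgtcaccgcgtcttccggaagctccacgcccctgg
NIM1K: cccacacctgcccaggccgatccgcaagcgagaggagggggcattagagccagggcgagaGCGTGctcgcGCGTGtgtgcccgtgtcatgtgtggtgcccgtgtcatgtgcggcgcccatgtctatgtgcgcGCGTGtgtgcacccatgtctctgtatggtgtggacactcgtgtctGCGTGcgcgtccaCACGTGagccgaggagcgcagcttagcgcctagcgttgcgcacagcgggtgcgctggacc

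The 250 bases before the start sites of 9 of the 10 genes, 14 windows in all, were searched on both strands. ZNF395 had no window in the promoter set used and was not searched. The shares over all genes are from the same 250 bases. The kappa-B consensus was found in TNFRSF14, as 3 overlapping matches from 86 bases before the start, and in PANX1, 100 bases before it. It stood in 2 of 9 genes, against 11.8% of the 27305 genes with such a window and 9.96% of the 35116 windows. The p53 decamer was found in 0 of 9 genes, against 6.80% of all genes. ACGTG was found in 2 of 9 genes, NIM1K and PANX1, against 21.7% of all genes, and GCGTG in 5 of 9 against 36.2%. In NIM1K the ACGTG lies in the palindrome CACGTG, so that it is read on either strand. Among promoter elements of general use, GGGCGG stood in 5 of 9 genes (46.2% of all), CCAAT in 4 of 9 (37.0%) and TATAAA in CYP26B1 alone of the 9 (13.05%). The AP-1 letters TGACTCA and the nuclear receptor letters AGGTCA were found in 0 of 9, against 5.19% and 14.6% of all genes. These are matches of letters in 1 window of each start site and no measure of binding.

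The 10 genes have 15 probes on the array. Of these, 12 were detected, with a detection p-value under 0.01, on all 12 arrays, at least 1 for each gene. The other 3 belong to DGKA and were detected on 0 arrays, with detection p-values of 0.0338 or above. Values below are background-corrected, quantile-normalized log2 intensities of the brightest detected probe of the gene. Apart from the marker sums, intensities of different probes are not compared as amounts of RNA, because probes differ in brightness for the same amount. Their brightness is compared only to show which probes are bright or dim. The raw intensities were modest. STOM ran from 332 to 1038 and ZNF395 from 173 to 355, and the dimmest used probe, ABTB2, from 107 to 138. The 3 DGKA probes detected on 0 arrays ran from 83.4 to 102.6, close below ABTB2. The lowest value of any probe was 72.8.

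Array means of raw intensity ran from 230 to 318, and 34.6% to 37.7% of the 47320 probes were detected. Arrays of 1 group correlated at 0.995 to 0.997. BCL3 itself fell by 0.87 on the log2 scale with its siRNA (SE 0.05, limma adjusted p = 1.27e-08). Of 7 glial markers, VIM, CD44, NES and OLIG2 were measured, whereas GFAP, S100B and SOX2 were detected on 0 arrays. Their summed linear level comes almost wholly from VIM and CD44, whose mean log2 intensities were 13.7 and 12.5 against 5.46 for NES and 4.90 for OLIG2. With control siRNA this sum ran from 22374 to 23418 under DMSO and from 20529 to 21273 under TMZ, and with BCL3 siRNA from 16851 to 18348 and from 16261 to 17221. Of 6 leukocyte markers 2 were measured, CD14 and LYZ, and PTPRC, CD3E and ITGAM were detected on 0 arrays. CD14 and LYZ were dim, detected on 9 and 10 of the 12 arrays, with mean log2 intensities of 4.81 and 5.02. Their sum ran from 51.8 to 58.2 under DMSO and from 59.5 to 64.3 under TMZ with control siRNA, and from 62.0 to 68.8 and from 58.7 to 65.8 with BCL3 siRNA. Of 4 epithelial markers EPCAM was measured, at 35.6 to 41.4 and 37.4 to 40.2 with control siRNA and at 31.4 to 39.5 and 22.6 to 31.1 with BCL3 siRNA, under DMSO and TMZ. Of 3 endothelial markers 0 were kept. Of 3 neuronal markers SNAP25 and SYT1 were measured, and RBFOX3 was detected on 0 arrays. With control siRNA the sum of SNAP25 and SYT1 was 260 to 277 under DMSO and 270 to 280 under TMZ. With BCL3 siRNA it was 190 to 207 under DMSO and 195 to 233 under TMZ. The sum comes mostly from SNAP25, whose mean log2 intensity was 7.70. SYT1, at 4.78, was detected on 6 of the 12 arrays. The glial and neuronal sums were thus lower with BCL3 siRNA, and under DMSO the leukocyte sum was higher with it, without overlap. With TMZ and control siRNA the glial sum was lower and the leukocyte sum higher without overlap, and with TMZ and BCL3 siRNA EPCAM was lower. The part of these shifts in the siRNA and TMZ results was not tested. All samples are of the U87 line, so the sums measure marker RNA and not the number of leukocytes, neurons or epithelial cells. In these bulk samples fewer U87 cells with a marker and less marker RNA per cell cannot be told apart.

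**Figure D1:**
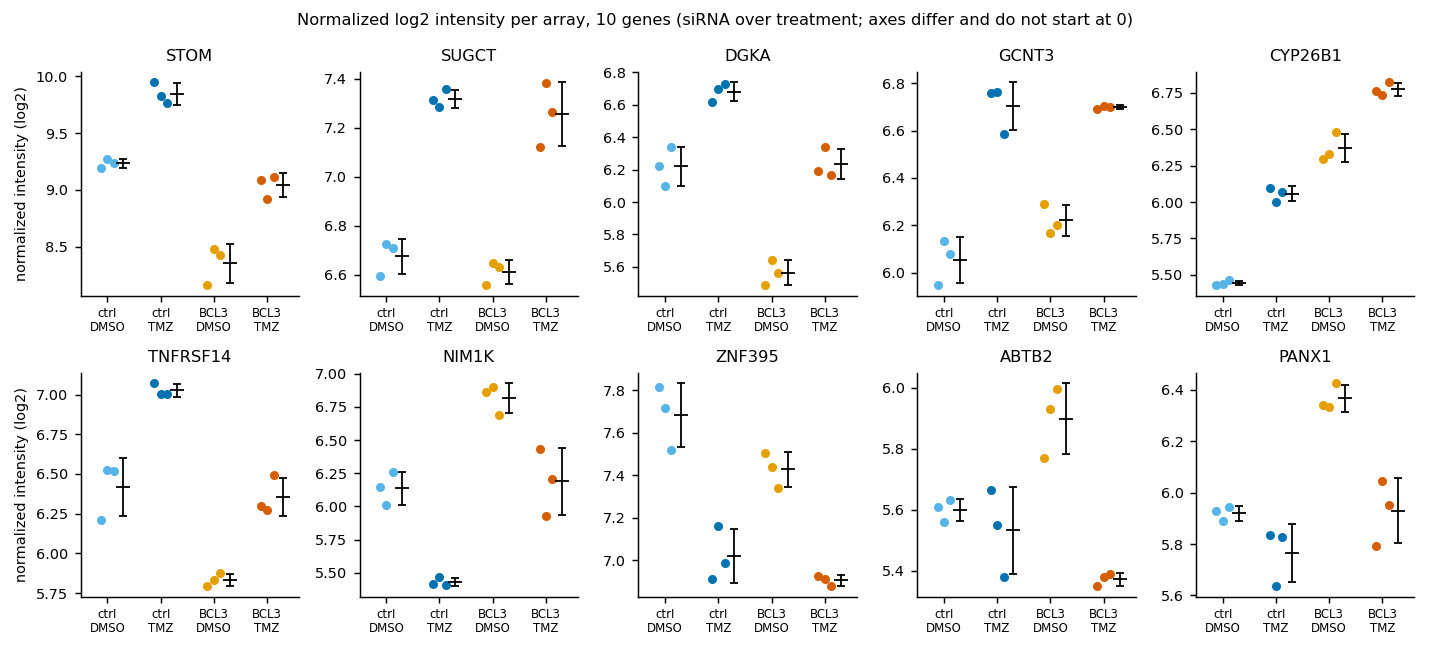
Normalized log2 intensity (y axis) of the 10 genes on each of the 12 arrays, by siRNA and treatment (x axis); points are arrays, and the bars beside them are the mean ± SD of 3 arrays. STOM, DGKA and TNFRSF14 sit lower with BCL3 siRNA and higher with TMZ, CYP26B1 is higher with each, and NIM1K is higher with BCL3 siRNA and lower with TMZ.

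TNFRSF14, also called HVEM, is the receptor for the cytokine LIGHT and the inhibitory partner BTLA. With control siRNA its 3 arrays stood at 6.21, 6.53 and 6.52 under DMSO and at 7.07, 7.00 and 7.00 under TMZ. With BCL3 siRNA they stood at 5.79, 5.83 and 5.87 under DMSO and at 6.30, 6.27 and 6.49 under TMZ. No TMZ array overlapped the DMSO arrays of the same siRNA, and no BCL3 siRNA array overlapped the control siRNA arrays of the same treatment. The TMZ difference was 0.61 ± 0.09 (SE) with control siRNA, 1.52-fold, and 0.52 ± 0.09 with BCL3 siRNA, 1.44-fold. With BCL3 siRNA and TMZ together the level was within the range of control cells under DMSO, the difference being -0.06 ± 0.09 (SE).

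PANX1 forms the channel through which cells release ATP. Its arrays stood at 5.93, 5.89 and 5.94 with control siRNA and DMSO and at 5.83, 5.64 and 5.83 with TMZ. BCL3 siRNA gave 6.34, 6.33 and 6.43 under DMSO and at 5.79, 6.05 and 5.95 under TMZ. The group that stood apart was therefore BCL3 siRNA with DMSO, above all 9 other arrays. Its arrays are part of the TMZ difference with BCL3 siRNA, which was used to choose the genes. The TMZ difference was -0.16 ± 0.07 (SE) with control siRNA, which is outside the call threshold, and -0.44 ± 0.07 with BCL3 siRNA, inside it. The siRNA difference, which shares arrays with that choice, was 0.45 ± 0.07 (SE) under DMSO and 0.17 ± 0.07 under TMZ.

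STOM encodes stomatin, a cholesterol-binding scaffold of the inner membrane face that modulates ion channels. Its arrays stood at 9.19, 9.28 and 9.24 with control siRNA and DMSO and at 9.95, 9.83 and 9.76 with TMZ. In BCL3 siRNA cells the values were 8.16, 8.48 and 8.43 under DMSO and at 9.09, 8.92 and 9.12 under TMZ. Every control siRNA array, with either treatment, was above every BCL3 siRNA array. TMZ went with 0.61 ± 0.09 (SE) with control siRNA and 0.69 ± 0.09 with BCL3 siRNA, 1.53-fold and 1.61-fold. The siRNA difference was larger than the TMZ difference, so BCL3 siRNA with TMZ stood below control siRNA with DMSO, at -0.19 ± 0.09 (SE). The second STOM probe was read on all arrays too. It gave 0.38 ± 0.10 and 0.56 ± 0.10 (SE) for TMZ with control and BCL3 siRNA and -0.94 ± 0.07 for the siRNA averaged over treatments, the same directions as the brighter probe.

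DGKA, diacylglycerol kinase alpha, turns the lipid messenger diacylglycerol into phosphatidic acid. On the brighter probe its arrays stood at 6.22, 6.10 and 6.34 with control siRNA and DMSO and at 6.61, 6.70 and 6.73 with TMZ. With BCL3 siRNA they stood at 5.49, 5.64 and 5.57 under DMSO and at 6.19, 6.34 and 6.17 under TMZ. On this probe the TMZ arrays lay above the DMSO arrays with each siRNA, by 0.46 ± 0.08 (SE) with control and 0.67 ± 0.08 with BCL3 siRNA. The other detected probe, ILMN_2319910, was dim. Its raw intensities ran from 104.3 to 137.5, where the undetected DGKA probes reached 102.6. It read 5.23, 5.35 and 5.37 with control siRNA and DMSO and 5.89, 5.98 and 5.87 with TMZ. With BCL3 siRNA it read 5.33, 5.35 and 5.09 under DMSO and 5.33, 5.44 and 5.29 under TMZ, and there the arrays overlapped. Its TMZ difference was 0.60 ± 0.08 (SE) with control siRNA and 0.10 ± 0.08 with BCL3 siRNA. The probes thus disagree on BCL3 siRNA cells: the difference between the TMZ effects of the siRNAs was 0.21 ± 0.11 (SE) on the brighter probe, ILMN_2319913, and -0.50 ± 0.12 on the other. The mean of both probes gave a TMZ difference of 0.38 with BCL3 siRNA. The reason for the disagreement was not tested, and the TMZ response of DGKA in BCL3 siRNA cells depends on the probe.

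**Figure D2:**
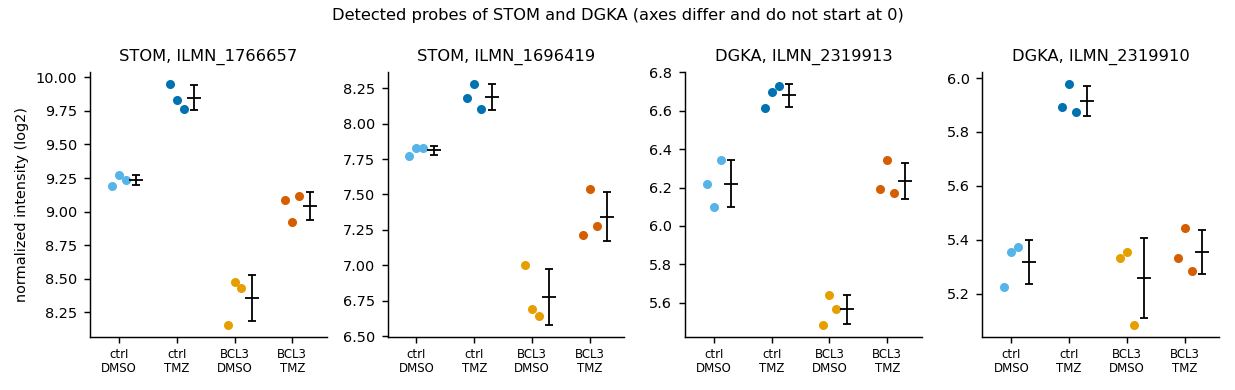
Normalized log2 intensity (y axis) of the detected probes of STOM and DGKA on the 12 arrays by siRNA and treatment (x axis); points are arrays, bars the mean ± SD of 3. Both STOM probes show the same pattern, whereas ILMN_2319910 of DGKA is raised with control siRNA and TMZ (5.87 to 5.98) and overlaps between DMSO and TMZ with BCL3 siRNA.

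NIM1K is a serine/threonine kinase of the AMPK-related family, many but not all of whose members are activated by the kinase LKB1. Its arrays stood at 6.14, 6.01 and 6.26 with control siRNA and DMSO and at 5.42, 5.47 and 5.41 with TMZ. With BCL3 siRNA they stood at 6.86, 6.90 and 6.69 under DMSO and at 6.43, 5.93 and 6.20 under TMZ, the widest spread of its 4 groups (SD 0.25). The TMZ arrays lay below the DMSO arrays with each siRNA, at -0.71 ± 0.11 (SE) and -0.63 ± 0.11, 1.63-fold and 1.54-fold lower. Averaged over the siRNAs this was the lowest TMZ difference of the 10686 genes. The siRNA difference ran the other way, and cells with BCL3 siRNA and TMZ differed from control siRNA with DMSO by 0.05 ± 0.11 (SE), with overlapping arrays.

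SUGCT is the mitochondrial transferase that moves coenzyme A from succinyl-CoA to glutarate, a product of lysine breakdown. Its arrays stood at 6.59, 6.73 and 6.71 with control siRNA and DMSO and at 7.31, 7.28 and 7.36 with TMZ. The BCL3 siRNA arrays stood at 6.56, 6.65 and 6.63 under DMSO and at 7.12, 7.38 and 7.27 under TMZ. All 6 TMZ arrays were above all 6 DMSO arrays, and the siRNAs overlapped under each treatment. TMZ went with 0.64 ± 0.07 (SE) for either siRNA, 1.56-fold.

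GCNT3 adds the branch to mucin-type O-glycans. With control siRNA it averaged 6.05 ± 0.10 (SD, n = 3) under DMSO and 6.70 ± 0.10 under TMZ. With BCL3 siRNA it averaged 6.22 ± 0.06 under DMSO and 6.70 ± 0.01 under TMZ. The DMSO arrays ran from 5.95 to 6.29 and the TMZ arrays from 6.59 to 6.76, so treatments did not overlap across the siRNAs. The TMZ difference was 0.65 ± 0.07 (SE) with control siRNA and 0.48 ± 0.07 with BCL3 siRNA.

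CYP26B1 is a cytochrome P450 enzyme that hydroxylates retinoic acid and so inactivates it. Its arrays stood at 5.43, 5.44 and 5.46 with control siRNA and DMSO and at 6.10, 6.00 and 6.07 with TMZ. With BCL3 siRNA they stood at 6.30, 6.33 and 6.48 under DMSO and at 6.76, 6.73 and 6.82 under TMZ. The 4 groups were fully separated, in this order. TMZ went with 0.61 ± 0.06 (SE) with control siRNA and 0.41 ± 0.06 with BCL3 siRNA, 1.53-fold and 1.32-fold. Cells with BCL3 siRNA and TMZ exceeded control siRNA with DMSO by 1.33 ± 0.06 (SE), 2.51-fold, and in that comparison CYP26B1 ranked 10 from the top of all genes.

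ZNF395 is a zinc finger transcription factor known as a hypoxia-inducible gene. Its mean with control siRNA was 7.68 ± 0.15 (SD, n = 3) under DMSO and 7.02 ± 0.13 under TMZ. Its mean with BCL3 siRNA was 7.43 ± 0.08 under DMSO and 6.91 ± 0.03 under TMZ. All TMZ arrays, at 6.88 to 7.16, lay below all DMSO arrays, at 7.34 to 7.81. The TMZ difference was -0.66 ± 0.08 (SE) with control siRNA and -0.52 ± 0.08 with BCL3 siRNA.

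ABTB2 encodes a protein with ankyrin repeats and a BTB domain, a fold through which many proteins bind the ubiquitin ligase scaffold CUL3. Its arrays stood at 5.61, 5.56 and 5.63 with control siRNA and DMSO and at 5.66, 5.55 and 5.38 with TMZ, which overlap. Arrays with BCL3 siRNA stood at 5.77, 5.93 and 6.00 under DMSO and at 5.35, 5.38 and 5.39 under TMZ, which do not. The TMZ difference was -0.07 ± 0.08 (SE) with control siRNA, outside the call threshold, and -0.53 ± 0.08 with BCL3 siRNA, inside it. The siRNA difference was 0.30 ± 0.08 (SE) under DMSO and -0.16 ± 0.08 under TMZ.

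With control siRNA, 6 of the 10 genes were called higher with TMZ and 2 lower, and ABTB2 and PANX1 were outside the threshold; of all genes 0.468% were called higher and 0.393% lower. With BCL3 siRNA 6 were called higher and 4 lower, against 0.599% and 0.459% of all genes. These counts follow from how the genes were chosen. Among called differences the smallest were 0.41 for CYP26B1 and -0.44 for PANX1, both with BCL3 siRNA. Values outside the threshold were -0.16 for PANX1 and -0.07 for ABTB2, both with control siRNA. The difference between the TMZ effects of the siRNAs was -0.46 ± 0.11 (SE) for ABTB2 and -0.28 ± 0.11 for PANX1. In the limma fit across all genes that difference was called for 0 of 10686 genes (0%), with 718 at an unadjusted p under 0.05, so a call with 1 siRNA and not the other does not show that the responses of ABTB2 and PANX1 differ. Across the other 8 genes it ran from -0.21 (CYP26B1) to 0.21 (DGKA, brighter probe).

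The sizes of the TMZ differences depended on the background correction. Without it all were smaller, by over 1.5 times for every gene except STOM and, with control siRNA, ZNF395. CYP26B1 then stood at 0.26 and NIM1K at -0.30 with control siRNA, and DGKA at 0.30 and ABTB2 at -0.21 with BCL3 siRNA. In the authors' normalized values the same 4 differences were 0.87, -0.997, 0.92 and -0.77. STOM, the brightest, stood at 0.56 and 0.58 without correction.

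**Figure D3:**
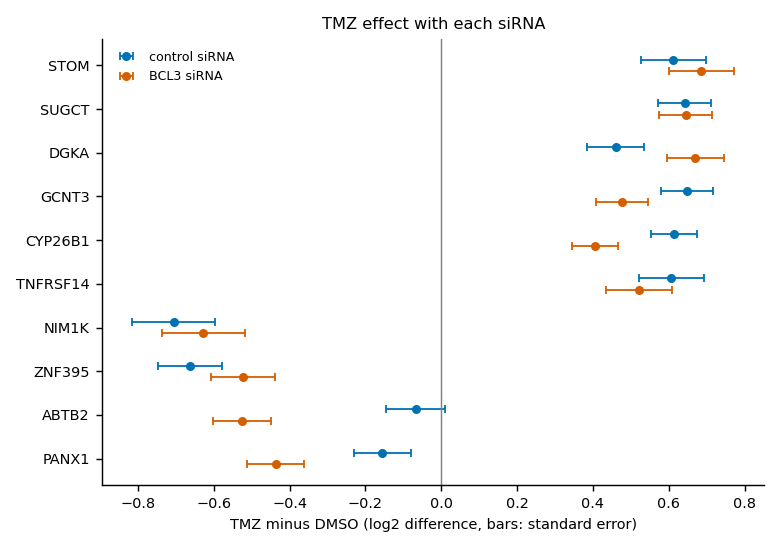
TMZ minus DMSO as a log2 difference (x axis) for the 10 genes (y axis) with control siRNA and with BCL3 siRNA; bars are standard errors from the fit over 12 arrays, 3 per group. SUGCT has 0.64 with either siRNA, and ABTB2 has -0.07 with control siRNA and -0.53 with BCL3 siRNA; the genes were selected on these values.

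The siRNA difference averaged over DMSO and TMZ was not used to choose the genes and was tested. CYP26B1, NIM1K and PANX1 rose with BCL3 siRNA, STOM, TNFRSF14, DGKA and ZNF395 fell, and SUGCT, GCNT3 and ABTB2 did not pass. The 3 of 10 that rose compare with 27.2% of all genes, and the 4 of 10 that fell with 26.7%, so the shares are near those of the whole array and say nothing particular about these genes. CYP26B1 rose by 0.82 ± 0.04 (SE), 1.77-fold, with a limma adjusted p of 7.13e-09, and all 6 BCL3 siRNA arrays were above all 6 control arrays. NIM1K rose by 0.72 ± 0.08 (SE, adjusted p = 5.39e-06) and PANX1 by 0.31 ± 0.05 (SE, adjusted p = 0.000314), with overlap when the treatments are pooled.

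STOM fell by 0.84 ± 0.06 (SE), 1.79-fold, with an adjusted p of 1.56e-07 and no overlap of the 6 and 6 arrays. TNFRSF14 fell by 0.63 ± 0.06 (SE, adjusted p = 2.28e-06), and both treatments gave near values, -0.59 and -0.67. DGKA fell by 0.55 ± 0.05 (SE, adjusted p = 2.09e-06), and its other probe gave -0.31 ± 0.06. That probe read -0.06 under DMSO and -0.56 under TMZ. ZNF395 fell by 0.19 ± 0.06 (SE, adjusted p = 0.0180), a size below that of the other called genes. SUGCT differed by -0.06 ± 0.05 (SE, adjusted p = 0.310), GCNT3 by 0.08 ± 0.05 (adjusted p = 0.178) and ABTB2 by 0.07 ± 0.05 (adjusted p = 0.303). For ABTB2 the values were 0.30 under DMSO and -0.16 ± 0.08 (SE) under TMZ, the latter with overlapping arrays. Such values under 1 treatment share arrays with the TMZ differences used to choose the genes. A change of sign is therefore not shown.

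Over all genes the siRNA calls were split evenly, 50.5% of them higher. Median scaling over detected probes gave 60.8% higher, and median scaling over all probes, chosen after seeing the data, 15.4%. The latter moved the median of all genes by -0.14. Under it PANX1 lost its call (0.10, adjusted p = 0.367), SUGCT gained one (-0.27, adjusted p = 0.0108), and GCNT3 and ABTB2 changed sign to -0.11 each. The other 6 genes kept direction and call under every alternative run, though without background correction CYP26B1 was at 0.40, NIM1K at 0.35, TNFRSF14 at -0.34 and DGKA at -0.27. PANX1 was then at 0.14 and kept its call.

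**Figure D4:**
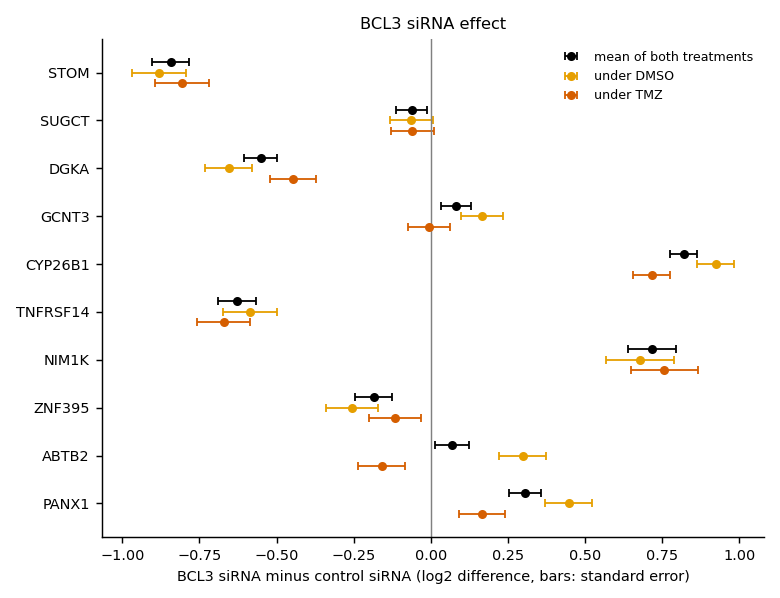
BCL3 siRNA minus control siRNA as a log2 difference (x axis) for the 10 genes (y axis), averaged over treatments (6 against 6 arrays) and under DMSO or TMZ alone (3 against 3); bars are standard errors. On average STOM is lowest at -0.84 and CYP26B1 highest at 0.82. ABTB2 is positive under DMSO and negative, with overlapping arrays, under TMZ. Values under DMSO or TMZ alone share arrays with the choice of the genes.

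Set side by side, the siRNA and TMZ differences had the same sign for CYP26B1 and ZNF395 and opposite signs for STOM, TNFRSF14, DGKA, NIM1K and PANX1. In cells with both, compared with control siRNA and DMSO, SUGCT stood at 0.58 ± 0.07 (SE), GCNT3 at 0.64 ± 0.07 and ZNF395 at -0.78 ± 0.08. DGKA was at 0.01 ± 0.08 and PANX1 at 0.01 ± 0.07, with overlapping arrays, and ABTB2 at -0.23 ± 0.08. These values use the TMZ contrast on which the genes were chosen and carry no test.

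Relatives of the 10 genes by family or pathway, 128 genes in 10 lists, gave 82 measured genes that the choice did not touch. For TMZ averaged over the siRNAs 1 of the 82 rose and 1 fell, where 2.71% of all genes rose and 2.12% fell. Of all calls in that comparison 56.1% were higher, and 43.4% with median scaling over detected probes. The median TMZ difference of the relatives was 0.02, against 0.01 for all genes. ERLIN2, an endoplasmic reticulum protein of the stomatin and prohibitin family, rose by 0.21 (adjusted p = 0.0295), and ST3GAL1, a sialyltransferase of O-glycans, fell by 0.24 (adjusted p = 0.0223). Both calls depended on the settings: median scaling over all probes ended both (adjusted p = 0.421 and 0.357), and the replicate block ended that of ERLIN2 (0.206, adjusted p = 0.0543). ERLIN2 was at 0.004 with the mean of its probes, and it lost its call without array 1 or 3 of control siRNA with DMSO (0.20 and 0.19), array 1 or 3 of control siRNA with TMZ (0.19 and 0.20), or array 1 of BCL3 siRNA with DMSO (0.18) or with TMZ (0.19). ST3GAL1 lost its call without array 1 of control siRNA with TMZ (-0.22), array 1 of BCL3 siRNA with DMSO (-0.22) or array 3 of BCL3 siRNA with TMZ (-0.23).

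**Figure D5:**
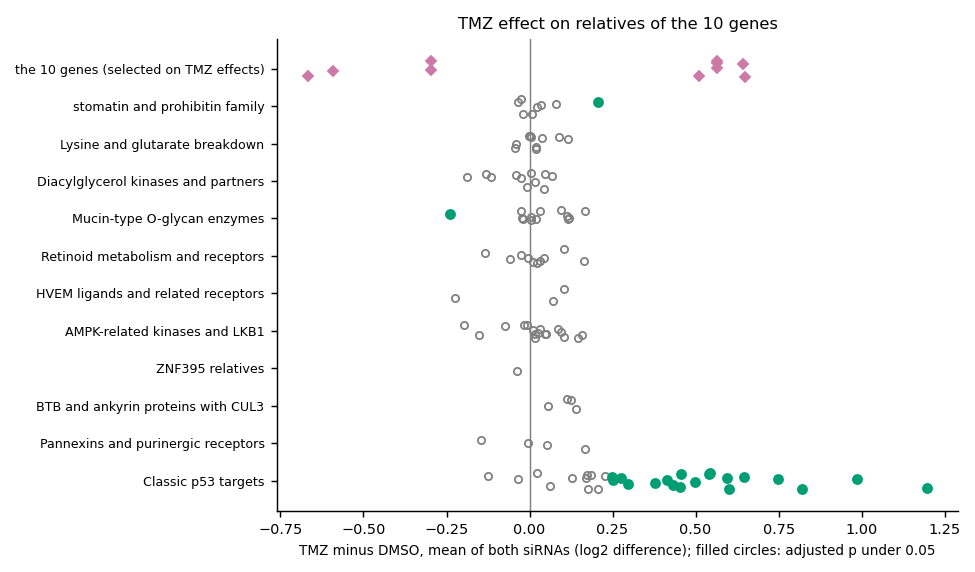
TMZ minus DMSO averaged over the siRNAs as a log2 difference (x axis) for the measured relatives, by list (y axis); circles are genes, filled where the adjusted p was under 0.05, diamonds the 10 genes themselves. Apart from ERLIN2 (0.21) and ST3GAL1 (-0.24) no relative passed, whereas 19 of 31 classic p53 targets did. Of all genes 2.71% rose and 2.12% fell.

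Of the classic p53 targets on the same arrays 19 of 31 measured genes rose with TMZ and 0 fell, with a median of 0.30. Of all genes 2.71% rose and 2.12% fell. Like the other lists, that of the p53 targets was written with earlier results of these data known. Its count was not recomputed under other settings. In the lysine and glutarate list, which surrounds SUGCT, 0 of 11 genes were called with TMZ, and GCDH, whose enzyme acts on the glutaryl-CoA that SUGCT makes, was at 0.04 (adjusted p = 0.760). In the retinoid list 0 of 10 were called, the nearest to the threshold being RARA at -0.13 (adjusted p = 0.0915). TNFSF14, which encodes LIGHT, was at 0.10 (adjusted p = 0.303). Of the 11 diacylglycerol kinases and partners, the 17 AMPK-related kinases and partners and the 4 pannexin and purinergic genes measured, 0 were called. Paralogs below detection, such as those of CYP26B1, were not tested.

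With BCL3 siRNA, 20 of the 82 relatives rose and 31 fell, in the comparison in which 27.2% and 26.7% of all genes did so. Under median scaling over all probes 5 rose and 40 fell. Around CYP26B1, 3 of 10 retinoid genes rose and 5 fell. RDH10, which makes retinal, was at -0.68 (adjusted p = 9.31e-07), CRABP2, a carrier of retinoic acid, at -0.47 (adjusted p = 5.22e-06), and the receptor RXRA at -0.51 (adjusted p = 6.53e-06). Around GCNT3, 7 of 13 O-glycan genes rose and 3 fell; its paralog GCNT1 rose by 0.35 (adjusted p = 2.74e-05), GALNT1, which starts the glycan, by 0.55 (adjusted p = 1.41e-05), and GCNT2 fell by 0.68 (adjusted p = 4.24e-06). Around DGKA, 1 of 11 rose and 6 fell, among them its paralog DGKQ by 0.23 (adjusted p = 0.000975), the phospholipase gene PLCG1 by 0.30 (adjusted p = 0.00110) and PRKCA, a protein kinase C that diacylglycerol activates, by 0.22 (adjusted p = 0.00276).

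In the stomatin and prohibitin list 2 of 8 rose and 4 fell, with ERLIN2 at -0.56 (adjusted p = 6.07e-07). In the lysine and glutarate list 2 of 11 rose and 4 fell, with DHTKD1 at -0.52 (adjusted p = 7.16e-06). TNFSF14, the gene of the TNFRSF14 ligand LIGHT, rose by 0.41 (adjusted p = 5.09e-05), the only call among 3 measured relatives of that receptor. Among 4 pannexin and purinergic genes 2 rose and 2 fell; P2RY11, a receptor for ATP, rose by 0.91 (adjusted p = 7.85e-07), NT5E, which makes adenosine from AMP, rose by 0.23 (adjusted p = 0.000307), and P2RX7, the ATP-gated channel, fell by 0.27 (adjusted p = 0.000687). Of 17 AMPK-related kinases and partners 2 rose and 4 fell, among them PRKAA1 at -0.43 (adjusted p = 2.65e-05). KEAP1, a BTB adaptor of CUL3, fell by 0.65 (adjusted p = 4.64e-08), 1 of 2 that fell among 4 measured in the ABTB2 list. SLC2A4RG, the measured relative of ZNF395, fell by 0.25 (adjusted p = 0.000986).

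For each of the 10 genes the most similar genes were found by Pearson r over the 12 arrays after centring within each siRNA. The points share the TMZ and DMSO groups, so r mainly ranks genes whose TMZ difference resembles that of the gene, and it is given without a p. GADD45A was nearest to STOM (r = 0.98), DDB2 to TNFRSF14 (0.98) and SESN1 to CYP26B1 (0.99), all of them on the p53 list. CDKN1A was among the nearest 3 of STOM, SUGCT and CYP26B1. For SUGCT the nearest was ACTA2 (0.99), for GCNT3 it was AARS2 (0.99), and for DGKA it was ISCU (0.97), followed by SUGCT (0.95). Only the highest positive r was kept, and of 31 measured p53 targets 19 rose and 0 fell with TMZ. Neighbours on the p53 list could therefore hardly arise for genes lower with TMZ, and no conclusion is drawn from where they arose. The genes that were lower with TMZ had other neighbours, outside the p53 list. They were SLC2A1, ERRFI1 and TUFT1 for NIM1K (0.94 each) and IL1B, ANKRD37 and BNIP3 for ZNF395 (0.97, 0.96 and 0.96). For ABTB2 they were SLC7A5, RBM14 and KCTD5 (0.96, 0.95 and 0.94). For PANX1 they were SLC6A8, FLII and ZNF207 (0.97, 0.94 and 0.94).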

How the data were processed

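The deposited table holds unnormalized bead intensity values for 47320 probes on 12 arrays and, per the file headers, a detection p-value for each. Detection columns carry no array name and were paired with intensities by their strongest negative rank correlation. The second deposited table, intensity values normalized by the authors, served as an alternative. RNA was biotin-labelled with an Ambion kit, per the labels; scanner software, genome build: not given in the sources used here. neqc (limma 3.58.1, R 4.3.3) corrected background with an offset of 16, quantile-normalized and took log2, a scale that understates changes of dim probes. A detection p-value under 0.01 was required on 3 or more arrays. This left 18105 probes, and the brightest per gene gave 10686 genes. Of all probes 30112 had 1 symbol, 8 several and 17200 none in the platform annotation. The limma model held a mean for each of the 4 groups (8 residual degrees of freedom). P-values are 2-sided, Benjamini-Hochberg adjusted over all genes at 0.05, and "called", "rose" and "fell" mean past that. The fit was tested on simulated data. Promoters are from RefSeq.

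The 10 genes and all lists were chosen with earlier results of these data known. Named relatives are up to 3 called ones per list and comparison by lowest p; GCDH, RARA and TNFSF14 under TMZ were chosen after their values were seen. The number of arrays limits precision. Arrays of different groups with the same replicate number were not paired (their deviations correlated at -0.15 to 0.19).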

Additional observations from a re-analysis of the deposited data

How the results depend on the processing

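Over 23 alternatives, 690 values of the 10 genes were recomputed and 623 stayed within their spread or call. The exceptions for the tested siRNA difference were all under median scaling over all probes, chosen after seeing the data: PANX1 0.105 (adjusted p = 0.367), SUGCT -0.268, GCNT3 -0.115 and ABTB2 -0.111, the last 2 reversed. The cause was not tested. The other 63 were TMZ differences that moved by more than 1 SD in size, under an offset of 50, no background correction, the authors' values, the mean of the probes or median scaling over all probes. Without background correction they shrank to as little as 0.227 (CYP26B1, BCL3 siRNA) and -0.211 (ABTB2, BCL3 siRNA). Of the 10 genes 2 to 3 were higher and 4 to 5 lower with BCL3 siRNA, and 3 and 4 whichever array was left out. Genes called over the whole array with TMZ and control siRNA (92) became 290 with an offset of 50, 418 without background correction, 156 with the authors' normalized values, 148 with detection on all 12 arrays, 370 with a trended robust variance, and 36 to 100 when each array was left out. With BCL3 siRNA (113) they became 229, 289, 199 and, trended, 276, and 54 to 102. Averaged (517) they became 859, 966 and, trended, 922, with 105 under median scaling over all probes, and 237 to 522. The siRNA calls (5763) stayed between 4930 and 6036. Of the TMZ calls with BCL3 siRNA 56.6% were higher, 40% with median scaling and 96.8% with median scaling over all probes, where the control siRNA calls went from 54.3% to 15.7%. ERLIN2 lost its TMZ call with the mean of its probes (0.004), with the replicate block (0.206, adjusted p = 0.0543), under median scaling over all probes (0.212) and without array 1 or 3 of control siRNA with DMSO or with TMZ, or array 1 of BCL3 siRNA with DMSO or TMZ. ST3GAL1 lost its call under median scaling over all probes (-0.225) and without array 1 of control siRNA with TMZ (-0.219), array 1 of BCL3 siRNA with DMSO (-0.222) or array 3 of BCL3 siRNA with TMZ (-0.227). The replicate block changed no siRNA call of the 10 genes, and their TMZ calls under it were not compared. Over the whole array it gave 81 TMZ calls with control siRNA and 82 with BCL3 siRNA. The slide as a block was not run, since the files name no slide.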
